A study of Mus musculus with 41 samples.

Results

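The comparison described here sets Caprin1 knockout (KO) mouse embryonic stem cells (ESCs) against wild-type (WT) ESCs after 4 days in retinoic acid, before any exposure to α-amanitin. It holds 7 of the 41 samples of the series, chosen by their labels and by the columns of the 0 h count table: 2 libraries of KO clone 2, 1 library of KO clone 4 (its replicate 2) and 4 WT libraries. The series asks how CAPRIN1 bears on RNA metabolism while ESCs differentiate, through RNA-seq of KO and WT cells over a time course of α-amanitin, which blocks RNA polymerase II, and through RNA sequenced after immunoprecipitation of CAPRIN1 (RIP-seq). The WT cells are the mouse ESC line R1, and each KO line is 1 clone. The sources used here do not give how the clones were made, and KO clone 4 replicate 1 at 0 h was not analysed here. All 7 samples grew without LIF, the cytokine that keeps ESCs undifferentiated, and with 1 µM retinoic acid, and none had yet been exposed to the inhibitor. Total RNA was made into libraries with a stranded mRNA kit. Genes of lineage, interferon and imprinted sets were set aside (660 symbols), and the account covers the genes and pathways outside them.

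The CAPRIN1 protein binds RNA in the cytoplasm and partners G3BP1 and G3BP2, around which stress granules assemble. It is known for binding messenger RNAs and affecting their translation and stability. Retinoic acid drives ESCs out of the undifferentiated state and towards several lineages, among them cells of the extraembryonic endoderm. Such cells make and secrete basement membrane proteins in large amounts, which pass through the endoplasmic reticulum (ER) and the Golgi.

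The Caprin1 transcript was low in clone 2 and not in clone 4. Levels are given as CPM, the counts of a gene relative to the counts of its library, scaled by TMM, a method that sets libraries to a common scale, and differences as log2 values, KO or a clone minus WT. A gene was called at a false discovery rate (FDR) under 0.05. Caprin1 (chromosome 2, 103762945 to 103797669 of GRCm38) was at 111 and 109.8 CPM in clone 2 and 1123 CPM in clone 4, against 896, 808, 992 and 1013 CPM in WT. By the edgeR quasi-likelihood test, clone 2 differed from WT by -3.06 on the log2 scale (FDR 5.26e-08). Clone 4 differed by 0.28 (FDR 0.19). A count over the whole gene does not show a small edit, so it checks the label of clone 2 and not that of clone 4. In what follows, "clone 4" stands for the library that carries this label, and directions given for KO rest partly on it.

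The libraries were not equally far apart. Total counts were 31565738 and 18855323 in clone 2, 19489723 in clone 4 and 3953468 to 22684394 in WT. The libraries formed close pairs: at genes with at least 50 counts, the chi-square per gene was 3.06 between the clone 2 libraries, 3.95 between WT replicates 1 and 2 and 3.11 between WT replicates 3 and 4, against 21.0 to 47.3 across the WT pairs. Since the labels do not say that libraries came from separate cultures, p-values measure the spread between these libraries, which may be technical. The Y-linked gene Ddx3y was at 4.58 and 4.78 CPM in clone 2 and 42.7 CPM in clone 4, against 33.1, 26.5, 43.3 and 43.02 CPM in WT, and Uty was likewise lower in clone 2, while Eif2s3y was not, with 38.5 and 37.1 CPM in clone 2, 43.4 CPM in clone 4 and 26.7 to 39.8 CPM in WT. The Y-linked gene Kdm5d, too low to test with the clones pooled, was at 0.509 and 0.45 CPM in clone 2 and 2.44 CPM in clone 4. Its WT levels were 0, 0.087, 0.50 and 0.080 CPM. After 2 h of α-amanitin Kdm5d was at 0.887 and 0.534 CPM in clone 2, 2.14 and 1.49 CPM in clone 4 and 0 CPM in all 4 WT libraries. The 9 stem cell markers summed to 1150 and 1220 CPM in clone 2, 805 CPM in clone 4 and 579 to 683 CPM in WT, and 5 of them were higher in KO. The stem cell genes Pou5f1 (148 and 155 CPM in clone 2, 111 CPM in clone 4 and 70.7 to 104 CPM in WT) and Sox2 (57.9 and 73.5 CPM in clone 2, 65.04 CPM in clone 4 and 67.9 to 86.8 CPM in WT) were present in every library. Endoderm genes were also present in every library, for example Gata4 at 749 and 727 CPM in clone 2, 337 CPM in clone 4 and 210.5 to 246 CPM in WT. Of 70 endoderm markers tested, 44 were higher and 7 lower in KO, and the summed level of all 76 was 103000 and 99300 CPM in clone 2, 49600 CPM in clone 4 and 31000 to 35100 CPM in WT. Feeder fibroblast markers summed to 1960 and 1980 CPM in clone 2, 4800 CPM in clone 4 and 1500 to 2080 CPM in WT, with 9 of 17 tested markers higher and 1 lower and with Lum and Meox2 too low to test. Endothelial markers summed to 118 and 132 CPM in clone 2, 67.5 CPM in clone 4 and 41.4 to 52.3 CPM in WT, with Emcn and Cldn5 too low to test. Macrophage markers summed to 32.6 and 30.2 CPM in clone 2, 13.8 CPM in clone 4 and 9.62 to 12.5 CPM in WT, and the defining markers Ptprc, Adgre1, Lyz2, Aif1 and Tyrobp were too low to test. In bulk RNA, a different number of cells of a type and a different amount of RNA per cell cannot be told apart.

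With the clones pooled, 4092 of 15659 genes tested were called (26.1%), of which 2180 were higher in KO (13.9%) and 1912 lower (12.2%) in the edgeR quasi-likelihood test; every FDR given for KO against WT below is from this fit. The number of calls depended on single libraries. Leaving out clone 2 replicate 1 gave 1810 calls, and leaving out clone 2 replicate 2 gave 1734. The single clone 4 library left out gave 7584. For WT the numbers were 2384 (replicate 1 left out), 2209 (replicate 2) and 2642 (replicate 3). With each close pair of libraries summed into 1, a check chosen after the data were seen, edgeR called 0 genes in KO against WT, while 2685 had an unadjusted p under 0.05. In that check 4729 genes were called in clone 2 and 1725 in clone 4. In a fit with 3 groups, which assumes that the single clone 4 library varies like the others, 3683 of the 15659 genes were higher (23.5%) and 3692 lower (23.6%) in clone 2, and 1475 were higher (9.42%) and 1118 lower (7.14%) in clone 4. Clone 4 and clone 2 differed from each other in 3926 genes (25.1%). Genes called in both clones numbered 983 higher (6.28%), 838 lower (5.35%) and 161 in opposite directions (1.03%). The clones share the WT libraries, so these counts are not independent.

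Among the genes with the largest increases in both clones were 3 fibroblast growth factors. Outside the sets left aside, 638 genes with a mean of at least 5 CPM were higher with the clones pooled and in each clone, and had every KO library above every WT library; the 14 whose smaller clone difference was largest are named here. Over all genes tested, 19.1% had every KO library above every WT library and 18.3% had every one below. The choice used these same values, so they are a description. Fgf7, a secreted fibroblast growth factor that acts on epithelia (chromosome 2, 126034658 to 126091185), was at 10.3 and 11.3 CPM in clone 2 and 31.04 CPM in clone 4, against 0.493, 0.960, 1.59 and 1.60 CPM in WT. Both clones lay far above all WT libraries, and clone 4 was the highest. The log2 difference was 3.79 (SE 0.48, FDR 0.00278) with the clones pooled, 3.07 in clone 2 and 4.59 in clone 4. Fgf10, a growth factor of the same subfamily, was at 109.6 and 122 CPM in clone 2 and 89.1 CPM in clone 4, against 21.9, 18.98, 27.9 and 28.04 CPM in WT, with clone 2 the higher clone and a log2 difference of 2.14 (SE 0.17, FDR 0.000853). Fgf2, the basic fibroblast growth factor, was at 17.3 and 18.1 CPM in clone 2 and 40.8 CPM in clone 4, against 5.18, 3.10, 5.32 and 4.49 CPM in WT. Fgf2 differed by 2.51 (SE 0.34, FDR 0.00336) on the log2 scale. Its 4 WT values lay close together and well below both clones.

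Cemip, which takes part in hyaluronan breakdown, and Mical2, a monooxygenase that oxidises actin and takes filaments apart, had similar levels in all 3 KO libraries. Cemip was at 288 and 269 CPM in clone 2 and 252 CPM in clone 4, against 64.4, 68.5, 67.6 and 70.5 CPM in WT. Cemip differed by 1.99 (SE 0.09, FDR 0.000103) on the log2 scale. For Mical2 the levels were 70.6 and 78.5 CPM in clone 2 and 92.000 CPM in clone 4, against 16.8, 16.6, 16.1 and 15.6 CPM in WT. Mical2 differed by 2.31 (SE 0.12, FDR 0.000103) on the log2 scale. In both genes the 3 KO libraries stood together and apart from the 4 WT libraries. The collagen receptor kinase Ddr2 had 22.2 and 25.6 CPM in clone 2, 81.2 CPM in clone 4 and 5.28 to 7.24 CPM in WT, and the proteoglycan Bgn had 167 and 183 CPM in clone 2, 505 CPM in clone 4 and 35.7 to 42.9 CPM in WT. Col6a3, a chain of collagen VI, had 6.58 and 8.54 CPM in clone 2, 19.7 CPM in clone 4 and 1.60 to 2.22 CPM in WT, and in these matrix-related genes clone 4 was the highest library. The summed feeder fibroblast markers were also highest in clone 4, at 4800 CPM, against 1960 and 1980 CPM in clone 2 and 1500 to 2080 CPM in WT, and their part was not tested. Pooled log2 differences were 2.66 for the BMP antagonist Grem1, 2.67 for the G protein regulator Rgs4, 3.21 for the membrane protein Tm4sf1, 2.42 for endothelial lipase Lipg, 2.46 for the CAP family gene Glipr1 and 2.33 for the germ cell RNA-binding protein Dazl, which complete the 14. Each of the 14 was called in all 7 fits that left out 1 library.

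The genes that were lower in both clones were of several kinds. Under the same rule 577 genes were lower, and the first 14 include ligands, transporters and matrix genes. Slc5a5, the sodium iodide symporter (chromosome 8, 70882885 to 70892785), was at 2.38 and 1.63 CPM in clone 2 and 1.75 CPM in clone 4, against 11.6, 10.1, 8.42 and 7.05 CPM in WT. Slc5a5 differed by -2.24 (SE 0.24, FDR 0.00199) on the log2 scale. Its KO libraries overlapped with each other and with no WT library. Pdgfb, a ligand of the platelet-derived growth factor receptors, was at 2.48 and 2.30 CPM in clone 2 and 3.02 CPM in clone 4, against 14.3, 14.3, 10.8 and 9.85 CPM in WT. Pdgfb differed by -2.23 (SE 0.22, FDR 0.00135) on the log2 scale. Wnt6, a Wnt ligand, was at 7.46 and 8.71 CPM in clone 2 and 6.90 CPM in clone 4, against 35.3, 30.8, 22.7 and 16.7 CPM in WT. Wnt6 differed by -1.76 (SE 0.26, FDR 0.00385) on the log2 scale. Here too the clones were alike and below every WT library. Frem2, a basement membrane-associated matrix protein, was at 6.95 and 5.34 CPM in clone 2 and 20.1 CPM in clone 4, against 80.4, 90.7, 71.7 and 62.5 CPM in WT, a graded order with clone 2 lowest and clone 4 between. Its log2 difference was -2.83 (SE 0.45, FDR 0.00542), -3.60 in clone 2 and -1.92 in clone 4.

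Also lower, by pooled log2 differences, were the mRNA-binding tristetraprolin relative Zfp36l3 (-3.17), Agap2, which promotes GTP hydrolysis by ARF proteins (-2.03), Srcin1, an adaptor that restrains SRC (-2.29), the collagen Col22a1 (-2.09), Sec14l5 (-2.08), the synaptic vesicle gene Svop (-2.74) and the small GTPase Rab38 (-2.21). Svop was at 1.56 and 0.899 CPM in clone 2 and 5.62 CPM in clone 4, against 19.2, 20.6, 19.2 and 12.5 CPM in WT, and Srcin1 at 3.77 and 4.10 CPM in clone 2 and 6.47 CPM in clone 4, against 31.3, 25.1, 18.9 and 18.99 CPM in WT. Clone 2 was the lower clone for Svop, and all KO libraries were alike for Srcin1. Hapln1, which links hyaluronan to proteoglycans, had 2 counts in the clone 2 libraries together against 608 in the WT libraries. The ratio of clone 2 to WT was 0.0044, with an exact 95% interval of 0.000531 to 0.016 that covers counting error only. In clone 4 Hapln1 was at 2.55 CPM, and WT libraries were at 8.63, 6.89, 9.88 and 14.4 CPM. The carbonic anhydrase Car3 was at 0.644 and 1.01 CPM in clone 2 and 7.59 CPM in clone 4, against 25.4, 22.5, 26.4 and 21.8 CPM in WT. Car3 differed by -2.99 (SE 0.75, FDR 0.023) on the log2 scale. The transporter Slc16a12 was at 0.203 and 0.393 CPM in clone 2 and 3.45 CPM in clone 4, against 10.8, 8.47, 12.5 and 10.8 CPM in WT. Slc16a12 differed by -3.03 (SE 0.79, FDR 0.0257) on the log2 scale. Hapln1, Car3 and Slc16a12 lost their pooled call when clone 2 replicate 2 or WT replicate 1, 2 or 3 was left out. Hapln1 also lost it without clone 2 replicate 1, and Hapln1 and Slc16a12 without WT replicate 4.

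**Figure D1:**
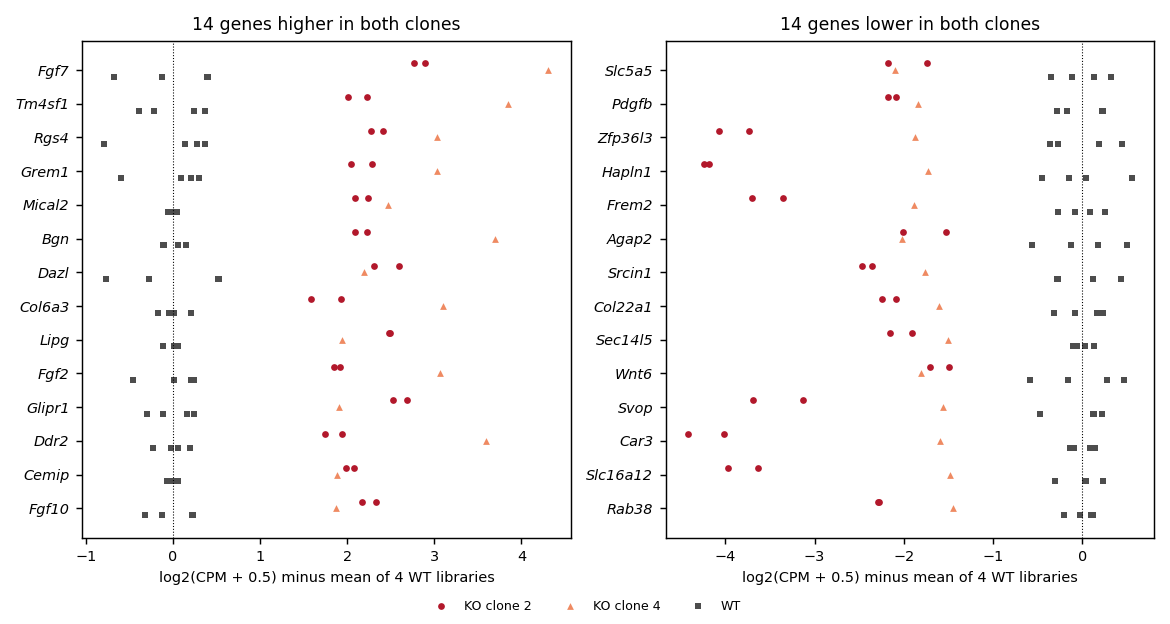
Level of each of the 28 named genes in each library, as log2(CPM + 0.5) minus the mean of the 4 WT libraries; circles are the 2 clone 2 libraries, triangles the clone 4 library and squares the 4 WT libraries. In the left panel all 3 KO libraries lie right of every WT library, with clone 4 highest for Fgf7, Bgn and Ddr2, and in the right panel all lie left of every WT library, with clone 2 lowest for Hapln1 and Car3.

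Of 66 lists of pathway members, those of the secretory and lysosomal pathways had the largest shares of members higher in KO, and those of Hedgehog, Notch and Wnt signalling the largest shares lower. The lists are described by counts and medians beside all genes tested, whose median log2 difference was -0.00163; nothing is read as particular to a list from this. In 3 lists no member was called with the clones pooled. Counts in clone 4 rest on the spread between libraries of the other groups: with the close pairs summed, clone 4 had 3 ER genes, 2 lysosomal genes and 0 vacuolar ATPase genes called higher.

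**Figure D2:**
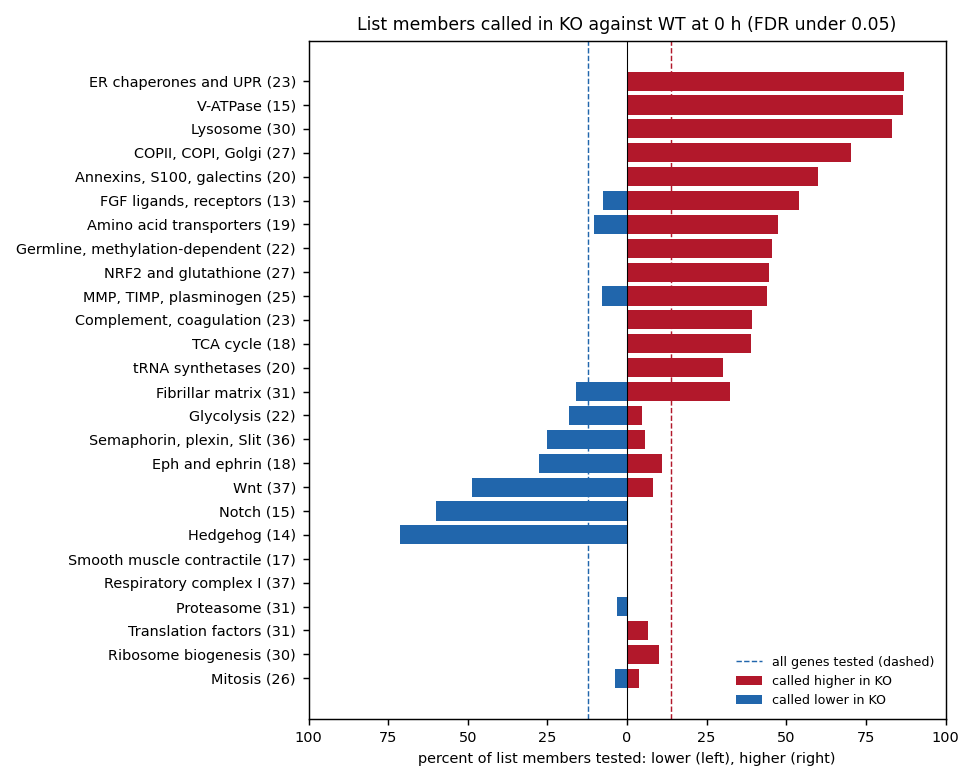
Percent of the tested members of 26 lists (number tested in brackets) that were called lower (bars to the left) or higher (bars to the right) in KO against WT at 0 h. The dashed lines mark the shares over all genes tested, 12.2% lower and 13.9% higher; 20 of 23 ER genes were higher and 10 of 14 Hedgehog genes were lower.

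Genes that fold proteins in the ER were higher in KO almost throughout. Of 23 members tested, 20 were higher and 0 lower, with a median log2 difference of 0.86; 22 were higher in clone 2 (median 1.00) and 13 in clone 4 (median 0.45). Hspa5, the ER chaperone BiP (chromosome 2, 34772090 to 34776529), was at 2404 and 2318 CPM in clone 2 and 1727 CPM in clone 4, against 1114, 1188, 1304 and 1307 CPM in WT. All KO libraries lay above all WT libraries, and clone 4 lay between clone 2 and WT. The log2 difference was 0.81 (SE 0.15, FDR 0.00713), and 0.95 in clone 2 and 0.49 in clone 4, with clone 4 minus clone 2 at -0.46 (SE 0.14, FDR 0.0379). Dnajc3, a co-chaperone of BiP (chromosome 14, 118937932 to 118981702), was at 1426 and 1393 CPM in clone 2 and 264 CPM in clone 4, against 122, 134, 156 and 158 CPM in WT. The clone 2 values stood far above the rest, and clone 4 was above every WT library. Its log2 difference was 2.85 (SE 0.49, FDR 0.00702), 3.31 in clone 2 and 0.89 in clone 4. Xbp1, a transcription factor of the unfolded protein response, was at 254 and 252 CPM in clone 2, 131 CPM in clone 4 and 94.97 to 103 CPM in WT, so that no KO library overlapped with WT. Xbp1 differed by 1.09 (SE 0.21, FDR 0.00846) on the log2 scale.

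The disulfide isomerase P4hb (log2 difference 1.12, SE 0.25, FDR 0.0149) and the ER protein Sdf2l1 (log2 difference 1.02, SE 0.25, FDR 0.0186) were higher with the clones pooled, and in clone 4 alone they were at 0.26 and 0.18 and were not called. Both lost the pooled call without either clone 2 library or without WT replicate 1, and Sdf2l1 also without WT replicate 2. The list's pooled count stayed between 16 and 22 when any 1 library was left out, while its clone 4 count was 7 without clone 2 replicate 1 or clone 2 replicate 2. The summed level of the ER list was 21900 and 21400 CPM in clone 2, 14100 CPM in clone 4 and 9460 to 10800 CPM in WT. That is also the order of the summed endoderm markers, 103000 and 99300 CPM in clone 2, 49600 CPM in clone 4 and 31000 to 35100 CPM in WT, and their part in the ER result was not tested.

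Promoter sequences are shown for 3 of these genes, and for a pair of lysosomal genes. Each group has a known promoter element that can be read beside the values. Hspa5 was taken as the first member of its list, and Dnajc3 for the size of its difference under the naming rule. The other genes shown were picked after their values were seen. The ER stress response element (ERSE), which is CCAAT and CCACG with 9 bases of any kind between them, was searched on both strands in windows from 250 bases before to 50 bases after each gene start, from RefSeq on GRCm38.p6. It occurred in 39 of 32851 windows (0.119%), and in 9 of the 20 ER members with a window: Hspa5, Hsp90b1, Calr, Canx, Pdia6, Dnajc3, Creld2, Syvn1 and Derl3. Of these 9 genes, 7 were higher in KO, against 20 of the 23 ER members tested. The 250 bases before the start are printed 5′ to 3′ on the gene's strand, with both ends of the element in capitals:
Hspa5 (chr2:34771840-34772089, plus strand): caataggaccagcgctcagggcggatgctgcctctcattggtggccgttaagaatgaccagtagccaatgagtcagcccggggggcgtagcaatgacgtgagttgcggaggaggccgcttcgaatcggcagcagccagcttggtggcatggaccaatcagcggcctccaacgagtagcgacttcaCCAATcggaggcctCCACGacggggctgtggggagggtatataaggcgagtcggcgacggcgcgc
Dnajc3 (chr14:118937682-118937931, plus strand): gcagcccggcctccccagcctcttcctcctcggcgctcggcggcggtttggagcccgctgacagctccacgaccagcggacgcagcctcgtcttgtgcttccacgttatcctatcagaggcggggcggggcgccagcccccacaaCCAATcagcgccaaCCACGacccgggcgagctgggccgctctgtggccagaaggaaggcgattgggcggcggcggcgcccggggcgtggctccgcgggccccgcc
Calr (chr8:84846932-84847181, minus strand): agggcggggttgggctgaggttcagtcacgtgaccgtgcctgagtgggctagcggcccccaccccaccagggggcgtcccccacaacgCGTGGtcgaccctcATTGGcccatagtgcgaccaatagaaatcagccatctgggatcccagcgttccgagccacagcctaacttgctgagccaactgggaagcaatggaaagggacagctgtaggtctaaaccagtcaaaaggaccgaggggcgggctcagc

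The element begins 65 bases before the start in Hspa5, 105 in Dnajc3 and, on the opposite strand, 162 in Calr, an ER chaperone of glycoproteins that was at 3500 and 3343 CPM in clone 2, 2556 CPM in clone 4 and 1552 to 1731 CPM in WT (log2 difference 0.94, SE 0.14, FDR 0.00406). Over the whole table, 19 tested genes had the element in their window; 8 were higher in KO and 0 lower (42.1% higher, against 13.9% of all genes), with a median of 0.63 in clone 2 and 0.14 in clone 4. Of the 8, 7 are the ER genes counted above. Among the 10 genes outside the ER list 1 was higher, Alg12, which lost its call without any library but clone 4 replicate 2. Alg12 (chromosome 15, 88805243 to 88819318) lies next to the ER gene Creld2 (88819646 to 88826681), so their windows may hold the same match. The window of Calr also holds the element searched next. A match is a description of these letters and not a site of binding.

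Genes that carry proteins between the ER and the Golgi were also higher. Of 27 tested genes of the COPII and COPI coats, cargo receptors and Golgi, 19 were higher and 0 lower (median 0.48; 24 higher in clone 2, 8 in clone 4), and the summed level was 8060 and 7850 CPM in clone 2, 6260 CPM in clone 4 and 4840 to 5200 CPM in WT. Sec23a, a subunit of the COPII coat (chromosome 12, 58958384 to 59012017), was at 288 and 288 CPM in clone 2 and 234 CPM in clone 4, against 115, 124, 154 and 161 CPM in WT. The 3 KO libraries lay near each other, and WT replicates 1 and 2 lay below WT replicates 3 and 4. The log2 difference was 0.96 (SE 0.15, FDR 0.00425). The cargo adaptor Sec24d (log2 difference 1.06, SE 0.16, FDR 0.00425), the cargo receptor Lman1 (log2 difference 1.01, SE 0.17, FDR 0.006) and the retrieval receptor Kdelr3 (log2 difference 1.61, SE 0.33, FDR 0.0111) were higher too, and all 4 genes stayed called without any 1 library. The list's count fell to 9 without clone 2 replicate 1 or clone 2 replicate 2, to 11 without WT replicate 1 and to 10 without WT replicate 2. Its clone 4 count was 3 (clone 2 replicate 1 left out), 4 (clone 2 replicate 2) or 5 (WT replicate 1). The endoderm markers had the same order of groups here and in the lysosomal and vacuolar ATPase lists that follow, and their part was not tested.

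Lysosomal genes were mostly higher. Of 30 tested, 25 were higher and 0 lower (median 0.79); 29 were higher in clone 2 and 8 in clone 4. The list summed to 8690 and 8640 CPM in clone 2, 5770 CPM in clone 4 and 4110 to 4460 CPM in WT. Lamp1, an abundant glycoprotein of the lysosomal membrane (chromosome 8, 13159161 to 13175338), was at 1526 and 1511 CPM in clone 2 and 981 CPM in clone 4, against 557, 573, 598 and 636 CPM in WT. Clone 4 lay between clone 2 and WT, and no WT library reached it. The log2 difference was 1.18 (SE 0.17, FDR 0.00353), 1.37 in clone 2 and 0.73 in clone 4. Acid ceramidase Asah1 was at 687 and 692 CPM in clone 2, 488 CPM in clone 4 and 203 to 319 CPM in WT (log2 difference 1.27, SE 0.21, FDR 0.00524). The proteases Ctsz (log2 difference 1.30, SE 0.22, FDR 0.00623) and Ctsc (log2 difference 1.16, SE 0.22, FDR 0.00784) were higher as well, and these 4 genes stayed called without any 1 library. The list's count was 14 when clone 2 replicate 1 was left out, and 13 when clone 2 replicate 2 was.

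The vacuolar ATPase, which acidifies lysosomes, had 13 of 15 subunits and accessory genes higher and 0 lower (median 0.72; 14 higher in clone 2, 4 in clone 4), with a summed level of 2670 and 2620 CPM in clone 2, 1750 CPM in clone 4 and 1240 to 1500 CPM in WT. Atp6v0a1, a subunit of its membrane part, was at 474 and 476 CPM in clone 2 and 212 CPM in clone 4, against 159, 177, 166 and 174 CPM in WT. Atp6v0a1 differed by 1.19 (SE 0.25, FDR 0.0112) on the log2 scale. Clone 2 was far above clone 4, and clone 4 was above every WT library. Atp6v0e rose by 0.87 (SE 0.16, FDR 0.00702) and the catalytic subunit Atp6v1a by 0.72 (SE 0.17, FDR 0.0163), the second with 362 and 357 CPM in clone 2, 259.8 CPM in clone 4 and 163 to 230.5 CPM in WT; Atp6v1a lost its call without either clone 2 library and without WT replicate 1 or 2. The count fell to 6 without clone 2 replicate 1 or clone 2 replicate 2, and to 7 without WT replicate 1 or WT replicate 2. The clone 4 count was 0 without either clone 2 library and 2 without WT replicate 1.

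The core of the CLEAR element, TCACGTGA, which reads the same on both strands, is known from promoters of lysosomal genes. It occurred in 320 of the 32851 windows (0.974%). Among them were those of 4 of 23 lysosomal members with a window (Ctsa, Ctsd, Gla and Mcoln1). A match was also found for 3 of 11 vacuolar ATPase members (Atp6v1a, Atp6v0d1 and Atp6v0e). All 7 were higher in KO, in lists of which 25 of 30 lysosomal and 13 of 15 vacuolar ATPase genes tested were higher. The 250 bases before the start of a lysosomal protease and of a lysosomal ion channel read as follows, with the element in capitals:
Ctsa (chr2:164833523-164833772, plus strand): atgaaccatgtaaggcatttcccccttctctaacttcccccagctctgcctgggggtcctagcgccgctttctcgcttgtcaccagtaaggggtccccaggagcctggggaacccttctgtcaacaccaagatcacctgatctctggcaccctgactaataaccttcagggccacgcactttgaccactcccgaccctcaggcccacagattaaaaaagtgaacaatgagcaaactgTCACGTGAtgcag
Mcoln1 (chr8:3500269-3500518, plus strand): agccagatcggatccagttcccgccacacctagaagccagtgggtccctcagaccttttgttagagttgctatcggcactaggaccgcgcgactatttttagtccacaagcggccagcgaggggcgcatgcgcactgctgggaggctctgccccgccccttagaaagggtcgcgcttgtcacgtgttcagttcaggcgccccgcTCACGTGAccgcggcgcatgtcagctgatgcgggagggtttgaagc

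Ctsa, a carboxypeptidase that also protects other lysosomal enzymes, has a further match in the 50 bases after its start, which are not shown, and was at 293 and 285 CPM in clone 2, 217 CPM in clone 4 and 142 to 159 CPM in WT (log2 difference 0.79, SE 0.12, FDR 0.00464). Mcoln1 was at 83.4 and 79.8 CPM in clone 2, 42.8 CPM in clone 4 and 37.3 to 41.4 CPM in WT, with clone 4 only just above WT (log2 difference 0.81, SE 0.21, FDR 0.0242; 0.14 in clone 4, not called). Mcoln1 lost its call without any library but clone 4 replicate 2. Of 230 tested genes with the element, 45 were higher (19.6%, against 13.9% of all genes) and 19 lower. Their median log2 difference was 0.07. Neither element was found in the windows of 25 COPII, COPI and Golgi members, which says only that these letters are absent from those windows.

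**Figure D3:**
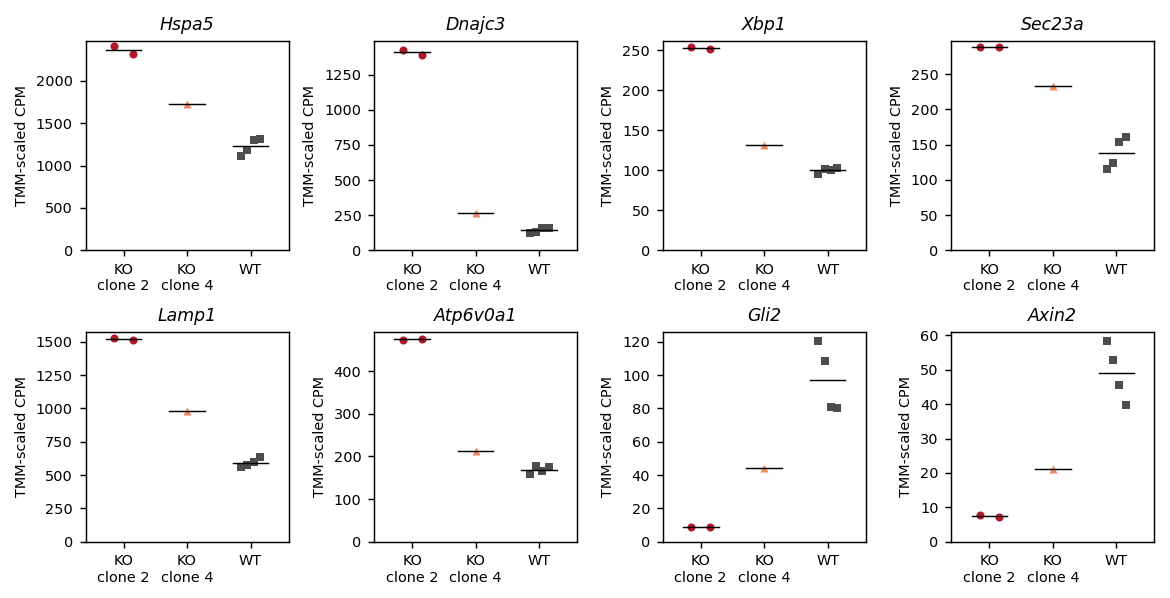
TMM-scaled CPM of 8 genes in each library, with bars at the group means; groups are KO clone 2 (2 libraries), KO clone 4 (1 library) and WT (4 libraries), and each axis starts at 0. Clone 4 lies between clone 2 and WT in all 8 genes: Hspa5, Dnajc3, Xbp1, Sec23a, Lamp1 and Atp6v0a1 are higher in KO, and Gli2 and Axin2 are lower.

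Genes for amino acid uptake and for charging transfer RNAs were higher in part. Of 19 tested amino acid transporters, 9 were higher and 2 lower (median 0.44). Slc7a5, which carries large neutral amino acids, was at 168 and 163 CPM in clone 2 and 109 CPM in clone 4, against 66.4, 75.7, 69.3 and 72.02 CPM in WT. Slc7a5 differed by 1.05 (SE 0.15, FDR 0.00377) on the log2 scale. The cationic transporter Slc7a1 was at 298 and 299 CPM in clone 2 and 266 CPM in clone 4, against 135, 154, 153 and 156 CPM in WT. Slc7a1 differed by 0.94 (SE 0.10, FDR 0.00188) on the log2 scale. In both genes all KO libraries were well above WT, and clone 4 was the lowest of the 3. The neutral amino acid carrier Slc38a2 was higher (log2 difference 0.87, SE 0.15, FDR 0.00616), and the glutamate transporter Slc1a3 was lower (log2 difference -0.97, SE 0.30, FDR 0.0445). Slc1a3 lost its call without any 1 library except clone 4 replicate 2. The count of transporters higher was 5 without clone 2 replicate 2. Of 20 cytosolic aminoacyl-tRNA synthetases, 6 were higher and 0 lower (median 0.22), among them those for asparagine (Nars, log2 difference 0.78, SE 0.11, FDR 0.00383), threonine (Tars, log2 difference 0.68, SE 0.09, FDR 0.00336) and isoleucine (Iars, log2 difference 0.63, SE 0.11, FDR 0.006). Nars was at 304 and 304 CPM in clone 2, 308 CPM in clone 4 and 151 to 199 CPM in WT, so that the clones were level and above WT, while Aars, for alanine, was not called (log2 difference -0.10, SE 0.16, FDR 0.673). The synthetase count was 3 without clone 2 replicate 1 or clone 2 replicate 2 and 10 without clone 4 replicate 2.

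With the clones pooled, detoxification genes were higher or not called, and metal-handling genes went both ways. Of 27 genes of the NRF2 and glutathione systems, 12 were higher and 0 lower (median 0.33); 17 were higher and 3 lower in clone 2, 6 higher and 1 lower in clone 4, and 1 was called in opposite directions. That count was 6 when clone 2 replicate 1 was left out, and 7 when clone 2 replicate 2 or WT replicate 1 was. Mgst3, a membrane-bound glutathione transferase, was at 103 and 103 CPM in clone 2 and 48.4 CPM in clone 4, against 25.9, 35.8, 32.96 and 34.9 CPM in WT (log2 difference 1.38, SE 0.25, FDR 0.0073), with clone 2 far above clone 4 and clone 4 above WT. Gsto1, a cytosolic glutathione transferase, had its highest level in clone 4, with 71.4 and 67.1 CPM in clone 2, 147 CPM in clone 4 and 40.2 to 48.3 CPM in WT (log2 difference 1.11, SE 0.26, FDR 0.0166), and lost its call without WT replicate 1. The quinone reductase Nqo1 was higher by 0.83 (SE 0.19, FDR 0.0149) and lost its call without either clone 2 library. Of 14 metal-handling genes, 5 were higher and 3 lower, and without either clone 2 library 3 were higher and 1 lower. The metallothioneins Mt1 (log2 difference 1.44, SE 0.26, FDR 0.00726) and Mt2 (log2 difference 1.38, SE 0.23, FDR 0.006) and the ferritin heavy chain Fth1 (log2 difference 0.77, SE 0.14, FDR 0.00768) were higher. The iron exporter Slc40a1 was at 5.16 and 6.29 CPM in clone 2 and 10.3 CPM in clone 4, against 28.1, 26.6, 32.8 and 30.8 CPM in WT, with every KO library far below WT (log2 difference -2.04, SE 0.24, FDR 0.00226).

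Wnt signalling genes were lower more often than higher. Of 37 tested, 18 were lower, 3 higher and 16 not called, with a median of -1.05; 27 were lower in clone 2 (median -1.31) and 10 in clone 4 (median -0.44), and 4 were higher in clone 2 and 3 in clone 4. Among ligands, Wnt6 is given above, and Wnt10b was at 0.577 and 0.730 CPM in clone 2 and 3.40 CPM in clone 4, against 6.91, 8.16, 8.12 and 8.01 CPM in WT. Wnt10b differed by -2.36 (SE 0.55, FDR 0.0173) on the log2 scale. The receptor Fzd2 was at 29.6 and 29.4 CPM in clone 2 and 69.2 CPM in clone 4, against 206, 166, 138 and 123 CPM in WT. Fzd2 differed by -1.88 (SE 0.34, FDR 0.00793) on the log2 scale. In both genes clone 2 was lowest and clone 4 lay between clone 2 and WT. Axin2, a direct target of the pathway that also restrains it (chromosome 11, 108917828 to 108950783), was at 7.77 and 7.30 CPM in clone 2 and 21.1 CPM in clone 4, against 58.5, 52.9, 45.6 and 39.7 CPM in WT. The KO libraries did not overlap with WT, whose own values ran lower in replicates 3 and 4. The log2 difference was -2.03 (SE 0.38, FDR 0.00894), -2.68 in clone 2 and -1.20 in clone 4. Nkd1, a further feedback inhibitor, was lower (log2 difference -2.06, SE 0.46, FDR 0.0155). The transcription factor Tcf7l2 (log2 difference 1.37, SE 0.20, FDR 0.0041), the secreted antagonist Sfrp5 (log2 difference 1.02, SE 0.20, FDR 0.00997) and the receptor Fzd5 (log2 difference 0.59, SE 0.12, FDR 0.0117) were the 3 higher members. Nkd1 and Fzd5 lost their call without clone 2 replicate 2, and Wnt10b without clone 2 replicate 2 or WT replicate 2. With 1 library left out, the count of lower members was 9 (clone 2 replicate 1), 7 (clone 2 replicate 2), 11 (WT replicate 1) or 10 (WT replicate 2).

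Hedgehog genes were lower or not called. Of 14 tested, 10 were lower and 0 higher (median -0.73); 11 were lower in clone 2 and 7 in clone 4. The receptor Ptch1, itself a target of the pathway, was at 91.9 and 96.3 CPM in clone 2 and 86.8 CPM in clone 4, against 121, 139.6, 124 and 141 CPM in WT (log2 difference -0.52, SE 0.10, FDR 0.00878), with -0.47 in clone 2 and -0.59 in clone 4. Hhip, which binds the ligands, was at 7.53 and 7.42 CPM in clone 2 and 13.2 CPM in clone 4, against 20.2, 19.8, 24.5 and 27.5 CPM in WT. Hhip differed by -1.30 (SE 0.24, FDR 0.00742) on the log2 scale. The transcription factor Gli2 (chromosome 1, 118834061 to 119054405) was at 8.82 and 8.71 CPM in clone 2 and 44.1 CPM in clone 4, against 120.4, 108, 80.7 and 80.2 CPM in WT, a log2 difference of -2.25 (SE 0.58, FDR 0.0262), -3.45 in clone 2 and -1.13 in clone 4. Clone 2 was at a small part of the clone 4 level, and clone 4 was at about the middle between clone 2 and the lowest WT libraries. Gli3 (log2 difference -1.77, SE 0.56, FDR 0.0497) and the co-receptor Gas1 (log2 difference -1.65, SE 0.42, FDR 0.0243) followed the same order. Gli2 and Gas1 lost their call without either clone 2 library and without WT replicate 1, 2 or 3, and Gli3 without any library but clone 4 replicate 2. The count was 3 without clone 2 replicate 1 or clone 2 replicate 2, 5 without WT replicate 1 or WT replicate 2 and 6 without WT replicate 3.

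Notch receptors and ligands were lower or not called with the clones pooled. Of 15 genes tested, 9 were lower and 0 higher (median -0.87; 11 lower in clone 2, 3 lower and 1 higher in clone 4). Notch3 was at 48.3 and 43.8 CPM in clone 2 and 133 CPM in clone 4, against 327, 330.1, 261 and 229 CPM in WT. Notch3 differed by -1.93 (SE 0.40, FDR 0.012) on the log2 scale. The ligand Jag2 was at 25.6 and 24.2 CPM in clone 2 and 36.6 CPM in clone 4, against 90.04, 84.01, 64.4 and 62.1 CPM in WT. Jag2 differed by -1.38 (SE 0.20, FDR 0.00377) on the log2 scale. Every KO library of these genes was below every WT library. Notch1 (log2 difference -1.05, SE 0.25, FDR 0.0172) and Notch2 (log2 difference -0.98, SE 0.25, FDR 0.023) were lower too, and both lost their call without either clone 2 library and without WT replicate 1 or 2. The target Hes1, picked after its value was seen, was not called (log2 difference 0.01, SE 0.12, FDR 0.951). The count was 2 without clone 2 replicate 1 or clone 2 replicate 2 and 3 without WT replicate 1 or WT replicate 2. In clone 2 it was 6 without replicate 1, and in clone 4 it was 5 without WT replicate 4.

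FGF and TGF-β family genes went both ways. Of 13 FGF ligands, receptors and co-factors tested, 7 were higher and 1 lower with the clones pooled (median 0.91). In clone 2 alone 7 were higher and 4 lower (median 1.11), and the clone 4 median was 0.28. Beside Fgf2, Fgf7 and Fgf10, the ligand Fgf3 was at 43.5 and 40.3 CPM in clone 2 and 10.4 CPM in clone 4, against 4.93, 4.10, 4.73 and 4.49 CPM in WT (log2 difference 2.80, SE 0.44, FDR 0.00533), highest in clone 2. The receptor Fgfr3 was higher by 1.59 (SE 0.36, FDR 0.0154), with 60.2 and 60.7 CPM in clone 2, 18.8 CPM in clone 4 and 14.4 to 16.2 CPM in WT, and Fgfr2 was lower (log2 difference -0.81, SE 0.18, FDR 0.0149); Fgfr3 lost its call without either clone 2 library and Fgfr2 without clone 2 replicate 2. Of 38 BMP and TGF-β genes, 9 were higher and 6 lower with the clones pooled (median 0.07), and without clone 4 replicate 2 the count of lower members was 16. In clone 2 alone 12 were higher and 16 lower (median -0.12), and the clone 4 median was 0.12. The activin subunit Inhba was at 51.5 and 56.2 CPM in clone 2 and 291 CPM in clone 4, against 17.3, 13.3, 22.2 and 22.99 CPM in WT. Inhba differed by 2.81 (SE 0.61, FDR 0.0141) on the log2 scale. Clone 4 was by far the highest library, and clone 2 was above WT. Inhba lost its call without WT replicate 2. The BMP antagonist Grem1, given above, was higher. The ligand Bmp7 (log2 difference -2.37, SE 0.45, FDR 0.00939) and the BMP targets Id3 (log2 difference -1.55, SE 0.19, FDR 0.00246) and Smad6 (log2 difference -1.29, SE 0.20, FDR 0.00465) were lower; Id3 was at 67.3 and 66.6 CPM in clone 2 and 95.1 CPM in clone 4, against 254, 257, 208 and 175 CPM in WT.

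Guidance ligands and their receptors held both lower and higher members. Of 36 semaphorin, plexin, Slit and netrin genes, 9 were lower and 2 higher, and of 18 Eph and ephrin genes 5 were lower and 2 higher. In clone 2 alone 21 semaphorin-list genes were lower and 7 higher (median -0.73), while in clone 4 alone 7 were lower and 8 higher (median -0.07), and 4 were called in opposite directions. The Eph list had 9 lower and 5 higher in clone 2, and 7 lower and 0 higher in clone 4. The semaphorin Sema3b was at 3.63 and 3.43 CPM in clone 2 and 8.54 CPM in clone 4, against 27.4, 23.8, 21.6 and 17.5 CPM in WT. Sema3b differed by -2.11 (SE 0.34, FDR 0.00494) on the log2 scale. Its relative Sema6d was at 45.2 and 44.3 CPM in clone 2 and 19.4 CPM in clone 4, against 12.1, 12.7, 13.7 and 15.1 CPM in WT. Sema6d differed by 1.43 (SE 0.27, FDR 0.0082) on the log2 scale. The first was below and the second above WT in every KO library. The ephrin ligand Efnb3 (log2 difference -1.45, SE 0.22, FDR 0.00406) and the receptor Ephb4 (log2 difference -0.67, SE 0.12, FDR 0.00702) were lower, and the receptor Ephb3 was higher (log2 difference 0.90, SE 0.18, FDR 0.0111). Without clone 4 replicate 2, 21 semaphorin-list members and 9 Eph-list members were lower. The semaphorin list had 5 lower members without clone 2 replicate 2, WT replicate 1 or WT replicate 2. The Eph list had 2 lower members without either clone 2 library and 3 without WT replicate 1, 2 or 3.

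Matrix and contractile genes separated the clones from each other. Of 17 smooth muscle contractile genes, 0 were called with the clones pooled (median -0.13). In clone 2 alone 14 were lower and 1 higher (median -1.28), while in clone 4 alone 10 were higher and 1 lower (median 0.75); 9 of the 17 were called in opposite directions, against 1.03% of all genes. Acta2, the smooth muscle actin (chromosome 19, 34240336 to 34255585), was at 258 and 255 CPM in clone 2 and 1688 CPM in clone 4, against 851, 823, 770.000 and 673 CPM in WT. Clone 2 lay below every WT library and clone 4 above every one. The log2 difference was -1.59 in clone 2 and 1.12 in clone 4, with clone 4 minus clone 2 at 2.71 (SE 0.14, FDR 2.5e-06). Summed, the contractile genes had 1870 and 1860 CPM in clone 2, 6970 CPM in clone 4 and 3960 to 4890 CPM in WT. Feeder fibroblast markers, whose summed levels are given above, were highest in clone 4 as well, with 14 of 17 tested markers higher there and 0 lower; their part in these results was not tested.

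The other genes with the largest opposite differences, from 135 that met the rule, were of several kinds. The guidance ligand Sema3a was at 6.04 and 6.46 CPM in clone 2 and 41.6 CPM in clone 4, against 16.03, 11.6, 15.5 and 16.98 CPM in WT, and its clone 4 minus clone 2 difference was 2.73 (SE 0.21, FDR 1.01e-05). Egfr, the receptor of epidermal growth factor, was at 22.7 and 23.9 CPM in clone 2 and 115 CPM in clone 4, against 50.8, 49.5, 56.8 and 49.2 CPM in WT, a difference between the clones of 2.29 (SE 0.14, FDR 3.41e-06). In both genes clone 4 stood well above WT and clone 2 below. Col12a1 (log2 difference 2.46, SE 0.16, FDR 5.09e-06), the contractile genes Lmod1 (log2 difference 2.45, SE 0.24, FDR 4.76e-05) and Acta1 (log2 difference 2.78, SE 0.18, FDR 4.5e-06) and the protease Adamts6 (log2 difference 2.51, SE 0.22, FDR 2.37e-05) had the same order. Arhgap30, a GTPase-activating protein, had the reverse order, with 23.3 and 24.6 CPM in clone 2 and 4.19 CPM in clone 4, against 11.3, 9.69, 8.58 and 10.01 CPM in WT and a clone 4 minus clone 2 difference of -2.52 (SE 0.22, FDR 1.82e-05). For these 8 genes the pooled log2 difference lay between -0.09 and 0.83 and was not called. Each clone 4 value is that of 1 library, and the actin genes Acta1 and Acta2 are alike in sequence, so that shared reads may blur their values.

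Of 31 fibrillar collagen and matrix genes, 10 were higher and 5 lower with the clones pooled (median 0.27); 17 were higher and 4 lower in clone 4, and 13 higher and 15 lower in clone 2. Fbln2, a matrix glycoprotein, was at 201 and 206 CPM in clone 2 and 701 CPM in clone 4, against 87.3, 70.8, 61.8 and 62.8 CPM in WT. Fbln2 differed by 2.39 (SE 0.43, FDR 0.00796) on the log2 scale. Col18a1, a basement membrane collagen, was at 317 and 349 CPM in clone 2 and 538 CPM in clone 4, against 1422, 1391, 1044 and 981 CPM in WT. Col18a1 differed by -1.59 (SE 0.23, FDR 0.00376) on the log2 scale. Col11a1, a fibrillar collagen, was lower (log2 difference -2.09, SE 0.42, FDR 0.0108). Clone 2 and clone 4 lay on the same side of WT in these 3 genes, but Col1a1, the main chain of collagen I, was lower in clone 2 (-0.59) and higher in clone 4 (1.21). The count of higher matrix genes was 5 without WT replicate 1, 3 or 4 and 6 without WT replicate 2, and that of lower ones was 15 without clone 4 replicate 2, 2 without either clone 2 library, WT replicate 1 or WT replicate 2 and 3 without WT replicate 3 or 4. The clone 2 count of higher genes was 7 without clone 2 replicate 2.

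Proteases and their inhibitors were higher in part with the clones pooled. Of 25 genes of the matrix metalloprotease, TIMP and plasminogen systems, 11 were higher and 2 lower (median 0.14). The count of higher genes was 11 in each of the 7 fits that left out 1 library. That of lower genes was 12 without clone 4 replicate 2 and 1 without any other single library but WT replicate 4. In clone 2 alone 11 were higher and 12 lower (median -0.12), and the clone 4 median was 0.91. Mmp9, a gelatinase, was at 28.9 and 28.1 CPM in clone 2 and 102 CPM in clone 4, against 7.15, 10.04, 10.8 and 12.6 CPM in WT. Mmp9 differed by 2.36 (SE 0.47, FDR 0.0104) on the log2 scale. The inhibitor Timp3 was at 268 and 257 CPM in clone 2 and 148 CPM in clone 4, against 78.7, 66.7, 72.7 and 79.3 CPM in WT. Timp3 differed by 1.59 (SE 0.20, FDR 0.00248) on the log2 scale. The protease Adamts9 was higher by 1.51 (SE 0.19, FDR 0.00287). Mmp9 was highest in clone 4, whereas Timp3 and Adamts9 were highest in clone 2. Of 20 annexins, S100 proteins and galectins, 12 were higher and 0 lower with the clones pooled (median 0.64). In clone 2 alone 12 of them were higher and 4 lower (median 0.59), and the clone 4 median was 0.76. The calcium-binding protein S100g was at 136 and 123 CPM in clone 2 and 34.5 CPM in clone 4, against 12.8, 17.1, 17.8 and 16.7 CPM in WT (log2 difference 2.59, SE 0.41, FDR 0.00559) and the galectin Lgals4 at 35.1 and 32.1 CPM in clone 2 and 11.5 CPM in clone 4, against 2.96, 4.67, 3.39 and 5.13 CPM in WT (log2 difference 2.67, SE 0.38, FDR 0.00376), each highest in clone 2. Anxa1 was not called with the clones pooled and differed in sign between them, -0.85 in clone 2 and 1.41 in clone 4.

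**Figure D4:**
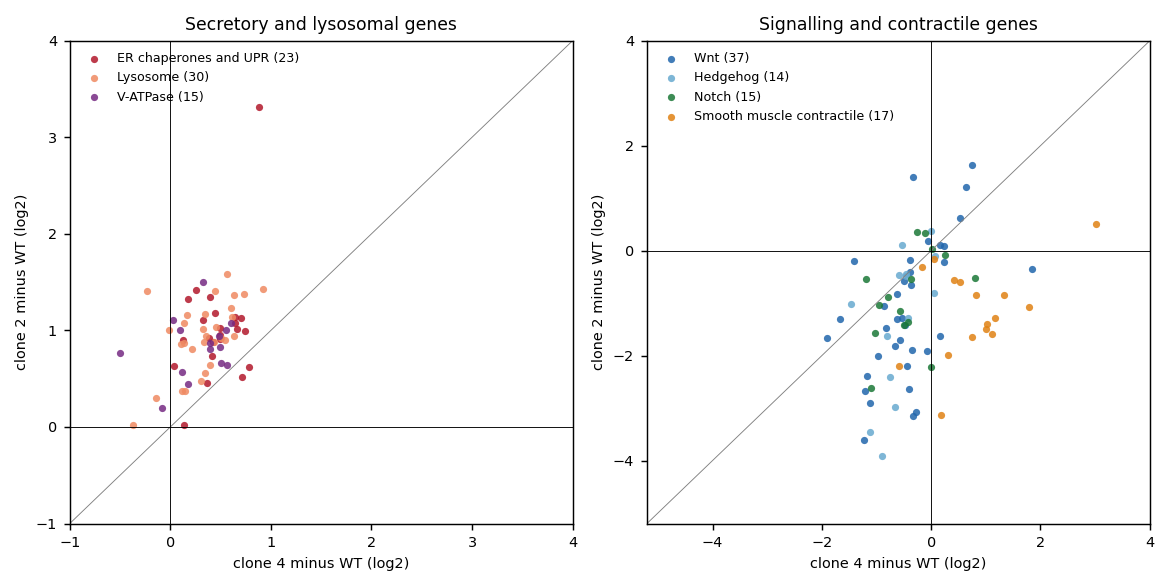
Log2 difference from WT in clone 4 (horizontal axis) and in clone 2 (vertical axis) for each tested member of 3 secretory and lysosomal lists (left) and of 3 signalling lists and the contractile list (right); the diagonal marks equal differences. Both axes share the 4 WT libraries. Most ER, lysosomal and vacuolar ATPase genes lie above the diagonal with both values positive, with Dnajc3 highest at 3.31 in clone 2, and most contractile genes lie at negative values in clone 2 and positive values in clone 4.

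Glycolytic genes held both lower and higher members, and genes of the citric acid cycle and of serine metabolism were higher or not called with the clones pooled. Of 22 glycolytic genes, 1 was higher and 4 lower with the clones pooled; clone 4 had 12 lower and 1 higher (median -0.55), and clone 2 had 5 higher and 4 lower. Ldhb, a subunit of lactate dehydrogenase, was at 29.6 and 29.1 CPM in clone 2 and 53.8 CPM in clone 4, against 94.97, 96.4, 81.2 and 80.4 CPM in WT. Ldhb differed by -1.23 (SE 0.22, FDR 0.00713) on the log2 scale. The enolase Eno1 was at 522 and 507 CPM in clone 2 and 415 CPM in clone 4, against 753, 892, 668 and 603 CPM in WT. Eno1 differed by -0.60 (SE 0.16, FDR 0.0261) on the log2 scale. Both clones were below WT in these genes; Eno1 lost its call without either clone 2 library and without WT replicate 1 or 2. The count of lower genes was 1 without clone 2 replicate 1, clone 2 replicate 2, WT replicate 1 or WT replicate 2, and 2 without WT replicate 3 or 4. Of 18 genes of the citric acid cycle, 7 were higher and 0 lower (median 0.16), among them Sucla2 (log2 difference 0.88, SE 0.15, FDR 0.00649), Suclg2 (log2 difference 0.69, SE 0.12, FDR 0.00723) and Idh1 (log2 difference 0.65, SE 0.13, FDR 0.00883). That count was 3 without either clone 2 library or WT replicate 1 and 4 without WT replicate 3. Of 14 serine and one-carbon genes, 5 were higher and 0 lower, and Aldh1l2, a mitochondrial folate enzyme, was at 11.3 and 11.2 CPM in clone 2 and 20.2 CPM in clone 4, against 2.71, 3.54, 3.18 and 3.85 CPM in WT. Aldh1l2 differed by 2.07 (SE 0.25, FDR 0.00248) on the log2 scale. The count was 3 without clone 2 replicate 1 or WT replicate 2 and 2 without clone 2 replicate 2, WT replicate 1 or WT replicate 3.

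Of 17 hypoxia-inducible genes, 5 were higher and 1 lower with the clones pooled (median 0.40). The count of higher genes was 10 without clone 4 replicate 2 and 3 without any other single library. In clone 2 alone 10 were higher and 1 lower (median 0.57), while the clone 4 median was -0.29. Adm, the vasodilator peptide adrenomedullin, was at 10.7 and 12.5 CPM in clone 2 and 25.3 CPM in clone 4, against 4.93, 5.11, 5.40 and 5.45 CPM in WT (log2 difference 1.62, SE 0.29, FDR 0.00713), above WT in each KO library, and the carbonic anhydrase Car12 was higher by 1.54 (SE 0.27, FDR 0.00635). Vegfa, the endothelial growth factor, was at 294 and 297 CPM in clone 2 and 142 CPM in clone 4, against 145, 146, 129.5 and 147 CPM in WT (log2 difference 0.79, SE 0.23, FDR 0.0364), so that clone 2 was above WT and clone 4 lay among the WT libraries. Vegfa was called in 1 of the 7 fits that left out a library, the one without clone 4 replicate 2. In lipid synthesis, 2 of 25 cholesterol genes were higher and 1 lower, and 4 of 15 fatty acid genes were higher and 2 lower. Without either clone 2 library, 1 cholesterol gene was higher and 0 lower, and 2 fatty acid genes were higher and 0 lower. The desaturase Scd1 was at 156 and 158 CPM in clone 2 and 119 CPM in clone 4, against 59.2, 66.2, 74.8 and 79.1 CPM in WT. Scd1 differed by 1.04 (SE 0.14, FDR 0.00335) on the log2 scale. Malic enzyme Me1 was higher by 1.68 (SE 0.33, FDR 0.0101). Insig1, which retains the sterol sensor in the ER, was at 281 and 253 CPM in clone 2 and 50.4 CPM in clone 4, against 45.1, 41.6, 50.8 and 47.4 CPM in WT. Insig1 differed by 2.08 (SE 0.48, FDR 0.0176) on the log2 scale. The excess of Insig1 was in clone 2, and it lost the call without either clone 2 library and without WT replicate 1 or 2.

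Apoptosis regulators held both higher and lower members. Of 22 genes of the BCL2 family and caspases, 3 were higher (13.6%, against 13.9% of all genes) and 5 lower (22.7%, against 12.2%). Without clone 2 replicate 1 these were 1 and 3, and without clone 2 replicate 2 they were 0 and 3. In clone 2 alone 5 were higher and 8 lower (median -0.15), and the clone 4 median was -0.16. Bbc3, which encodes the pro-apoptotic protein PUMA, was at 25.4 and 23.7 CPM in clone 2 and 33.7 CPM in clone 4, against 117, 95.7, 70.5 and 68.2 CPM in WT. Bbc3 differed by -1.66 (SE 0.22, FDR 0.00335) on the log2 scale. Bmf, another pro-apoptotic member, was at 29.3 and 28.1 CPM in clone 2 and 25.2 CPM in clone 4, against 50.8, 57.2, 49.8 and 52.4 CPM in WT. Bmf differed by -0.93 (SE 0.11, FDR 0.00232) on the log2 scale. The KO libraries of both genes lay below every WT library and were similar in the clones. Pmaip1, which encodes NOXA, was higher by 0.62 (SE 0.16, FDR 0.0233) and lost its call without clone 2 replicate 2 or WT replicate 1 or 2.

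Genes of the germ line and of DNA methylation also differed. Of 22 germline genes known to be silenced by DNA methylation, 10 were higher and 0 lower (median 0.73; 12 higher and 3 lower in clone 2, 7 higher and 0 lower in clone 4), a count that was 6 without either clone 2 library. Dazl was at 22.3 and 27.3 CPM in clone 2 and 20.6 CPM in clone 4, against 2.22, 3.32, 6.16 and 6.09 CPM in WT (log2 difference 2.33, SE 0.30, FDR 0.00287), with both clones alike and above WT. Tuba3a, a testis tubulin, was at 17.7 and 20.5 CPM in clone 2 and 5.73 CPM in clone 4, against 2.71, 2.66, 2.30 and 2.72 CPM in WT. Tuba3a differed by 2.50 (SE 0.40, FDR 0.00472) on the log2 scale. Taf7l, a germ cell transcription factor subunit, was higher by 0.91 (SE 0.15, FDR 0.00517). Tuba3a has a near-identical copy, Tuba3b, so its value is uncertain where reads could be split between them. Of 19 DNA methylation enzymes and cofactors, 3 were higher and 4 lower in clone 2 alone (median -0.04), and the clone 4 median was -0.03. With the clones pooled, 4 were lower and 1 higher, and without either clone 2 library 1 was lower. The higher one was Dnmt3l, a cofactor of the de novo methyltransferases, at 206 and 209 CPM in clone 2 and 157 CPM in clone 4, against 67.3, 81.6, 70.8 and 77.6 CPM in WT. Dnmt3l differed by 1.35 (SE 0.13, FDR 0.00134) on the log2 scale. The maintenance enzyme Dnmt1 (log2 difference -0.51, SE 0.13, FDR 0.0235) and the de novo enzyme Dnmt3a (log2 difference -0.51, SE 0.12, FDR 0.0156) were lower in the pooled fit, as was Tet3, which oxidises methylcytosine (log2 difference -0.68, SE 0.13, FDR 0.00832). Dnmt1 lost its call without either clone 2 library and without WT replicate 1 or 2, and Dnmt3a without either clone 2 library.

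Several core processes had few called members with the clones pooled. Of 37 genes of respiratory complex I, 0 were called with the clones pooled (6 higher and 1 lower in clone 2, 1 higher in clone 4), and of 36 genes of the other complexes 2 were higher. The proteasome had 1 of 31 lower, mitosis 1 higher and 1 lower of 26, replication licensing 1 higher and 2 lower of 27, ribosome biogenesis 3 of 30 higher, and translation factors 2 of 31 higher. Cytosolic chaperones had 1 of 24 higher, Cryab (log2 difference 0.94, SE 0.11, FDR 0.00225), and Hspa8 was not called (log2 difference -0.04, SE 0.15, FDR 0.869). In clone 2 alone, 10 genes of the other complexes were higher and 0 lower, and 8 licensing genes were higher and 3 lower. For ribosome biogenesis 4 were higher and 9 lower, for cytosolic chaperones 1 and 8, and for the proteasome 0 and 6. Mitosis had 2 and 3, and translation factors 4 and 1. Clone 4 medians of these lists lay between -0.13 and 0.21. None of the 11 genes of CAPRIN1 itself and its partners was called in the pooled fit, among them G3bp1 at 500.3 and 498 CPM in clone 2, 382 CPM in clone 4 and 417 to 465 CPM in WT (log2 difference 0.06, SE 0.12, FDR 0.747) and Fmr1 at 180.5 and 191 CPM in clone 2, 209 CPM in clone 4 and 94.3 to 172 CPM in WT (log2 difference 0.51, SE 0.19, FDR 0.0787). A p that misses the threshold does not show that a level is the same.

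The RIP-seq lists of the series give a further readout. The authors' deposited lists hold 2171 symbols for "CNT vs RA" and 2503 for "2I vs RA", with no values, and 1343 symbols are on both (61.9% of the first list and 53.7% of the second). Of 2061 tested symbols of the first list, 25.0% were higher and 10.1% lower in KO, and of 2360 of the second 20.4% were higher and 12.9% lower. With all genes tested split by level into 4 groups of equal size, 70.1% of the first list and 63.0% of the second were in the most abundant group. Of all 3911 genes of that group 744 were higher and 425 lower (10.9%), and within it the first list had 25.4% higher and 9.2% lower and the second 22.6% higher and 11.2% lower. Over all tested symbols 13.2% were on the first list and 15.1% on the second, and in the most abundant group 36.9% were on the first and 38.0% on the second. Of the 27 tested COPII, COPI and Golgi genes 19 were on each list, and of the 23 ER genes 13 were on the first and 12 on the second. Of the 14 genes named as higher in both clones, 2 were on each list (Mical2 and Cemip on the first), and of the 14 lower ones 2 were on the first (Frem2 and Car3) and 4 on the second. The sources used here do not give the direction and the threshold behind the lists.

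The libraries taken after 2 h of α-amanitin hold 2 libraries of each KO clone and 4 of WT, with 6359591 to 8371258 counts. Their values did not enter the rules for the 28 named genes and the 8 opposite ones. They are of the same clones, and the sources used here do not say whether they share cultures with the 0 h libraries. All 28 named genes had the same sign and were called at 2 h with the clones pooled and in each clone, where 2239 of 13195 genes were higher (17.0%) and 1924 lower (14.6%) in the pooled fit. In clone 2, 31.8% of genes were higher and 30.0% lower at 2 h, and in clone 4 21.7% were higher and 19.6% lower. With 1 library left out at 2 h, 25 to 28 of the 28 were called. Fgf7 was at 10.3 and 10.0 CPM in clone 2 and 26.3 and 24.1 CPM in clone 4, against 0.587, 1.10, 1.52 and 1.91 CPM in WT. Slc5a5 was at 1.65 and 1.07 CPM in clone 2 and 1.43 and 1.49 CPM in clone 4, against 8.07, 7.17, 6.51 and 6.39 CPM in WT. Both clone 4 libraries of this time point lay close together in both genes.

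The lists were chosen with earlier results of these data known. At 2 h they held similar counts: 21 of 23 ER genes were higher (median 0.70), 24 of 30 lysosomal genes (0.65), 13 of 15 vacuolar ATPase genes (0.59) and 19 of 27 COPII, COPI and Golgi genes (0.43), and 0 were lower in any of these 4 lists. Lower were 15 of 36 Wnt genes (median -0.87, 2 higher), 8 of 13 Hedgehog genes (-0.90) and 7 of 15 Notch genes (-0.51). Clone 4 medians at 2 h were 0.42 for the ER list, 0.34 for the lysosomal list and -0.53 for the Wnt list. Hspa5 was at 2441 and 2425 CPM in clone 2 and 1745 and 1718 CPM in clone 4, against 1252, 1241, 1311 and 1336 CPM in WT. The opposite genes stayed opposite: Acta2 was at 240.9 and 233.7 CPM in clone 2 and 1715 and 1625 CPM in clone 4, against 766.0 to 814.1 CPM in WT, and all 8 kept their sign in both clones.

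**Figure D5:**
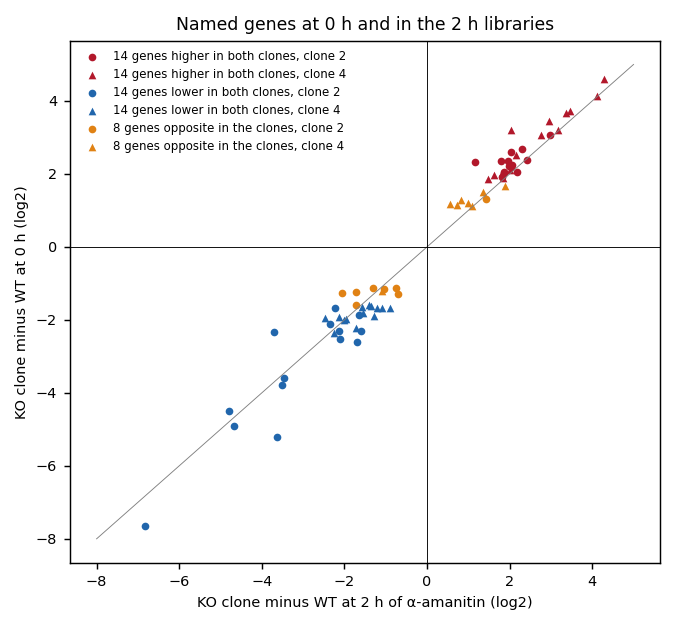
Log2 difference from WT of each KO clone in the 2 h libraries (horizontal axis) and in the 0 h libraries (vertical axis) for the 14 genes higher in both clones, the 14 lower in both and the 8 opposite ones; circles are clone 2 and triangles clone 4, each time point is set against its own 4 WT libraries, and the diagonal marks equal differences. Every point has the same sign on both axes; Fgf7 in clone 4 is the highest at 0 h, at 4.59.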

How the data were processed

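The authors deposited whole-number read counts per gene, 1 column per library. Per the submitters' processing notes, the builds are GRCm38 and mm10 and the tools include STAR 2.4.0.1, FastQC 0.11.9, Cufflinks, Cuffdiff, TopHat and DESeq2; per the labels' protocols, libraries were made with a KAPA stranded kit and run on a NextSeq500. Which program counted the reads, with what strand setting and annotation, is not given in the sources used here, so antisense and near-identical genes are uncertain. The authors' deposited RIP-seq lists hold other content, gene symbols with no values.

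Of 51520 lines, 110 repeated identifiers were dropped, and 50703 of the 51410 kept matched a reference of gene names. Gene positions were taken from RefSeq by symbol. The counts were tested with edgeR 4.0.16 in R 4.3.3 (filterByExpr, TMM, robust quasi-likelihood, Benjamini-Hochberg over all genes tested), for KO against WT with genotype as the only term (5 residual degrees of freedom) and for clone 2, clone 4 and WT as 3 groups (4 residual degrees of freedom). SE is the log2 difference divided by the square root of F. The code was checked on simulated data. DESeq2 1.42.0, RLE scaling, other filters, thinning, a replicate block, each WT pair alone and leaving out each library were alternatives. Depth was 3953468 to 31565738 counts, and intervals cover counting error only.

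The members and lists were chosen with earlier results of these data known. The genes named for both clones had at least 5 CPM on average, the call pooled and in each clone, no overlap with WT and the largest smaller clone difference (14 in each direction), and 8 were called in opposite directions; each pathway list gave up to 4 called genes per direction and its first listed one. Calr, Ctsa, Mcoln1 and Hes1 were chosen after their values were seen. Some members of the lists are not reported here by name.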

Additional observations from a re-analysis of the deposited data

Results flagged for a closer look

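Of 100 WT groups of 4 libraries examined for a library that stands apart, 3 held one, where chance gives about 1 in 20. Col12a1 was lowest in WT replicate 4, at 225 CPM, against 289 to 299 CPM in the other WT libraries. Vegfa was lowest in WT replicate 3, at 130 CPM, against 145 to 147 CPM. Cxcl12, a chemokine, was lowest in WT replicate 2, at 16.9 CPM, against 20.0 to 20.3 CPM.

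The clones differed from each other in 16 of the 28 genes named as higher or lower in both clones, in the 3-group fit of edgeR (FDR under 0.05). Of the genes higher in both clones, clone 4 exceeded clone 2 on the log2 scale for Fgf7 (1.52), Tm4sf1 (1.78), Grem1 (0.87), Bgn (1.52), Col6a3 (1.39), Fgf2 (1.20) and Ddr2 (1.76), and was below it for Lipg (-0.56) and Glipr1 (-0.72). Of the genes lower in both clones, clone 4 was the higher one for Zfp36l3 (2.53), Frem2 (1.68), Svop (2.11), Car3 (3.24), Slc16a12 (3.60) and Rab38 (1.03). Hapln1 had a fitted difference of 5.69 that depends on the prior count, since clone 2 had 2 counts in both libraries together against 48 in clone 4; the ratio of clone 2 to clone 4 was 0.0166, with an exact 95% interval of 0.00196 to 0.0634 for counting error only. Among the genes chosen for opposite differences, clone 4 minus clone 2 was 2.73 for Sema3a, 2.51 for Adamts6, -2.52 for Arhgap30, 2.45 for Lmod1, 2.46 for Col12a1, 2.29 for Egfr, 2.78 for Acta1 and 2.71 for Acta2. These values are a description, because the choice used them.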

How the results depend on the processing

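The pooled count of 4092 genes was 4612 with DESeq2, 4041 with RLE scaling, 3873 with at least 1 CPM in 3 libraries, 3826 with no filter on low counts and 2964 with libraries thinned to the smallest total. The share of calls that were higher was 53.3%, and 59.0% with no filter. The count was 2445 with WT replicates 1 and 2 only, 12 with WT replicates 3 and 4 only and 1860 at an absolute log2 difference of at least 1. It was 0 with the close pairs summed (2685 at an unadjusted p under 0.05), and leaving out 1 library gave 1734 to 7584. The sources used here do not say whether same-numbered KO and WT libraries share more than a number. The deviations of same-numbered clone 2 and WT libraries from their group means correlated at 0.05 and -0.08. The clone 2 deviations mirror each other by construction and clone 4 was left out, so these values cannot decide it. With the replicate number as a block edgeR called 0 genes (4609 at an unadjusted p under 0.05), and 1 of the 28 genes at 2 h; leaving out 1 library at 2 h gave 25 to 28. Clone 2 had 7740 calls among the genes of its own fit, 3486 at the absolute difference of 1, 4729 with pairs summed and 4869 to 7865 with 1 library left out. Clone 4 had 2719, 1192, 1725 and 1720 to 3259 under the same settings. Clone 4 against clone 2 had 4093, 2264, 2487 and 2146 to 5169.

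Without KO clone 4 replicate 2, the pooled log2 difference reversed for 8 genes, since clone 2 alone then stands for KO. Over all fits that left out 1 library, the lowest and highest values were -1.25 and 0.69 for Sema3a, -1.30 and 0.48 for Adamts6, -1.28 and 0.40 for Lmod1, -1.17 and 0.53 for Col12a1, -1.15 and 0.43 for Egfr, -1.13 and 0.87 for Acta1, -0.60 and 0.58 for Col1a1 and -0.86 and 0.70 for Anxa1. Of 314 named genes called, 0 lost the call with DESeq2, 2 with RLE scaling, 8 with the stricter filter, 67 with no filter, 29 when thinned, 141 with WT replicates 1 and 2 only, 311 with WT replicates 3 and 4 only, 314 under the block or with pairs summed and 0 to 151 with 1 library left out. The cause was not tested. The smallest library, at 3953468 counts, limits low genes.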

Other observations

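Several further groups of genes, outside the sets left aside, held called members. Of 23 complement and coagulation genes 9 were higher and 0 lower with the clones pooled, against 13.9% and 12.2% of all genes. In clone 2 alone 10 were higher and 5 lower, in clone 4 alone 11 were higher and 0 lower, and 3 were called in opposite directions. Complement component C3 was at 2.65 and 3.99 CPM in clone 2 and 2.76 CPM in clone 4, against 1.23, 0.393, 0.544 and 1.12 CPM in WT. C3 differed by 2.13 (SE 0.39, FDR 0.00708) on the log2 scale. The protein S gene Pros1 was at 323 and 356 CPM in clone 2 and 193 CPM in clone 4, against 95.2, 94.7, 122 and 124 CPM in WT. Pros1 differed by 1.41 (SE 0.21, FDR 0.00406) on the log2 scale. All KO libraries of both genes lay above all WT libraries. Of 19 chemokine and cytokine genes 7 were higher and 1 lower with the clones pooled. In clone 2 alone 7 were higher and 5 lower (median 0.28), and the clone 4 median was 0.60. The alarmin Il33 was at 64.2 and 66.1 CPM in clone 2 and 22.6 CPM in clone 4, against 11.1, 10.2, 13.3 and 16.7 CPM in WT. Il33 differed by 1.99 (SE 0.36, FDR 0.00776) on the log2 scale. Of 23 receptor tyrosine kinases and ligands 8 were higher and 5 lower with the clones pooled. In clone 2 alone 9 were higher and 10 lower (median -0.33), and the clone 4 median was -0.06. Among the pooled calls, Kit, the stem cell factor receptor, was higher (log2 difference 1.37, SE 0.30, FDR 0.0152). The collagen receptor Ddr1 was lower (log2 difference -1.39, SE 0.30, FDR 0.0139), opposite in sign to Ddr2. Without clone 2 replicate 1 the higher count of this list was 4, and without clone 2 replicate 2 it was 3; the lower count was 10 without clone 4 replicate 2, 2 without either clone 2 library and 3 without WT replicate 1, 2 or 3. Kit lost its call without either clone 2 library, and Ddr1 without clone 2 replicate 1.

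Junction, channel and clock genes also had called members, counted here with the clones pooled. Over all genes tested, 13.9% were higher and 12.2% lower. The tight junction gene Cldn4 was at 6.58 and 6.52 CPM in clone 2 and 13.5 CPM in clone 4, against 39.2, 39.9, 35.5 and 36.5 CPM in WT (log2 difference -2.10, SE 0.26, FDR 0.0027), one of 5 lower members of 19, against 1 higher. The potassium channels held 7 higher and 6 lower of 26, with Kcng1, a modifier subunit, higher (log2 difference 1.62, SE 0.36, FDR 0.0159) and Kcnh2, the channel ERG, lower (log2 difference -1.29, SE 0.24, FDR 0.0075). Kcng1 lost its call without either clone 2 library or WT replicate 2, and the count of higher channels was 1 without clone 2 replicate 1 or WT replicate 2. Of 21 tetraspanins, 5 were higher (23.8%) and 3 lower (14.3%, near the share of all genes). Without either clone 2 library 2 were higher and 0 lower. The tetraspanin Cd9 was at 334 and 345 CPM in clone 2, 226 CPM in clone 4 and 108 to 123 CPM in WT (log2 difference 1.40, SE 0.15, FDR 0.00199). Of 19 clock genes, 6 were higher and 1 lower (2 higher without either clone 2 library), and Arntl, which encodes BMAL1, was at 46.8 and 48.3 CPM in clone 2 and 42.7 CPM in clone 4, against 19.5, 20.8, 24.1 and 24.6 CPM in WT. Arntl differed by 1.04 (SE 0.12, FDR 0.00224) on the log2 scale. The small GTPase genes Rhoj (log2 difference 2.08, SE 0.55, FDR 0.0268) and Rhob (log2 difference -1.40, SE 0.27, FDR 0.00939) moved in opposite directions. Rhoj lost its call without any 1 WT library.

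By level, among genes with a position in RefSeq, the share higher in KO was 10.2%, 11.7%, 15.6% and 19.1% from the lowest to the highest of 4 equal groups of mean CPM, and the share lower was 12.2%, 15.1%, 11.6% and 10.8%. Medians in 4 equal groups of genomic span lay between -0.04 and 0.06.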
